A study of Rattus norvegicus with 48 samples.

Results

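The microRNAs (miRNAs) miR-146a and miR-146b were followed as 2 rows, rno-miR-146a and rno-miR-146b, of the 143 miRNAs in a rat liver profiling table. They were taken by name, with no cutoff on a measured value, although earlier results of these data were known when the pair was picked. Male Sprague-Dawley rats were pair-fed a Lieber-DeCarli liquid diet for 6 to 8 wk, from an age of 8 to 14 wk, with 36% of calories supplied by ethanol (EtOH) or by maltose-dextran carbohydrate (CHO). A 70% partial hepatectomy (PHx) then set off regeneration, and the liver remnant was taken after 6, 24 or 72 h, with 0 h as the baseline. Some rats received intraperitoneal AM21, a locked nucleic acid oligonucleotide antisense to miR-21, at 7.5 mg/kg, 72 h before surgery and again right after it. Control rats were injected with saline or left untreated. Both diets were sampled at 0 and 24 h in untreated, saline and AM21 rats and at 6 and 72 h in untreated rats only. This gave 16 groups of 3 samples, 48 in all, each counted here as a separate rat. The sources used here do not say whether a 0 h sample and a later sample came from the same rat. No unfed, chow-fed or sham-operated group was used here, and every liver came from a male.

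Transcription of the miR-146a gene is switched on by NF-κB downstream of Toll-like and interleukin-1 receptors. The mature miRNA represses TRAF6 and IRAK1, signalling proteins of the same receptors. miR-146a is therefore known as a negative feedback on innate immune signalling, and miR-146b is read beside it as a member of the same family. In the liver that signalling runs in Kupffer cells, sinusoidal endothelial cells, hepatic stellate cells and hepatocytes, and it helps to prime hepatocytes for division after PHx, while chronic ethanol increases the exposure of the liver to gut-derived endotoxin.

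The mature sequences from RefSeq (rat assembly GRCr8) show why the pair is treated as a family and where its members part. Capitals mark the seed, bases 2 to 8, which leads target recognition. The table names carry no arm; the 5p arms, which carry the TRAF6- and IRAK1-directed seed, are printed with miR-21-5p, the target of AM21.
miR-146a-5p: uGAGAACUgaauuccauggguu
miR-146b-5p: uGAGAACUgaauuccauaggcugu
miR-21-5p: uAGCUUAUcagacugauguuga
Both miR-146 sequences share the seed GAGAACU, and no other name among 693 rat mature sequences in that table held it. Over the 22 bases that could be aligned from the 5′ end, 20 were identical. The differences were G18A and U21C, with the miR-146a base given before the position, counted from 1 at the 5′ end, and the miR-146b base after it. miR-146b-5p carried 2 further bases at its 3′ end. Both differences lie outside the seed, and the hybridisation probes themselves were not given in the sources used here.

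The genes lie on different chromosomes. The miR-146a-5p sequence maps to chr10:28350053-28350074 on the minus strand (GRCr8), inside the span of the long noncoding RNA gene LOC134480673, with Pttg1 and Slu7 as the next protein-coding genes. The miR-146b-5p sequence maps to chr1:255144874-255144897 on the plus strand, inside the span of C1h10orf95 and between Cuedc2 and Mfsd13a. Whether either lies in an exon or an intron was not read from the annotation used.

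Levels are deposited log2 CPM values (counts relative to the scaled library size), and a difference of 1 on this scale is a doubling. Total counts per rat ranged from 58168 to 267582 (median 160078), of which miR-122, the dominant hepatocyte miRNA, took 42.1 to 68.8%. miR-146a was read with 151 to 1117 counts per rat (median 427), and miR-146b with 14 to 66 counts (median 32). Only 7 of the 143 miRNAs had a lower mean count than miR-146b, and negative control probes were not used here, so its counts were not shown to stand above background. Counting error alone amounts to an SD of 0.0698 log2 at the median count of miR-146a and 0.255 at that of miR-146b. The pooled SD among rats of a group was 0.231 for miR-146a and 0.392 for miR-146b. These are whole-liver samples, in which fewer cells of a type and less of a miRNA per cell cannot be told apart.

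miR-21 served as a check of the treatment labels. It lay between 6.59 and 7.76 log2 CPM in the 12 AM21 rats, a mean difference of -7.16 log2 from the controls (adjusted p = 1.311e-21), with no overlap between groups. Among rats without AM21, 2 of the 3 EtOH saline rats at 0 h were also low, with 11.12 and 9.65 log2 CPM against 12.97 or more in all others. Values without these 2 rats, which belong to sets 1 and 2 in the labels, follow the results that use them.

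The level of rno-miR-146a spanned 10.88 to 12.22 log2 CPM over all rats, and its 16 group means spanned 0.96 log2, from 11.97 ± 0.243 (SD, n = 3) in EtOH AM21 rats at 0 h down to 11.01 ± 0.142 in EtOH untreated rats at 24 h. Following the EtOH AM21 group at 0 h came CHO saline at 0 h (11.77 ± 0.0198), CHO AM21 at 0 h (11.76 ± 0.111) and EtOH AM21 at 24 h (11.74 ± 0.349), so that 3 of the 4 highest groups had received AM21. The lowest 3 groups were all collected at 24 h without AM21. No step between neighbours in this order exceeded 0.225 log2, which is below the pooled SD among rats of a group.

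The level of rno-miR-146b spanned 6.68 to 8.67 log2 CPM, with group means over 0.933 log2. CHO untreated rats at 24 h were highest (8.34 ± 0.299), followed after the widest step in the order, 0.354 log2, by CHO untreated rats at 6 h (7.98 ± 0.532). The lowest groups were EtOH saline (7.41 ± 0.270) and EtOH untreated rats (7.43 ± 0.0781) at 0 h. The 6 highest groups were all untreated. Each step was again smaller than the pooled SD among rats of a group.

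**Figure D1:**
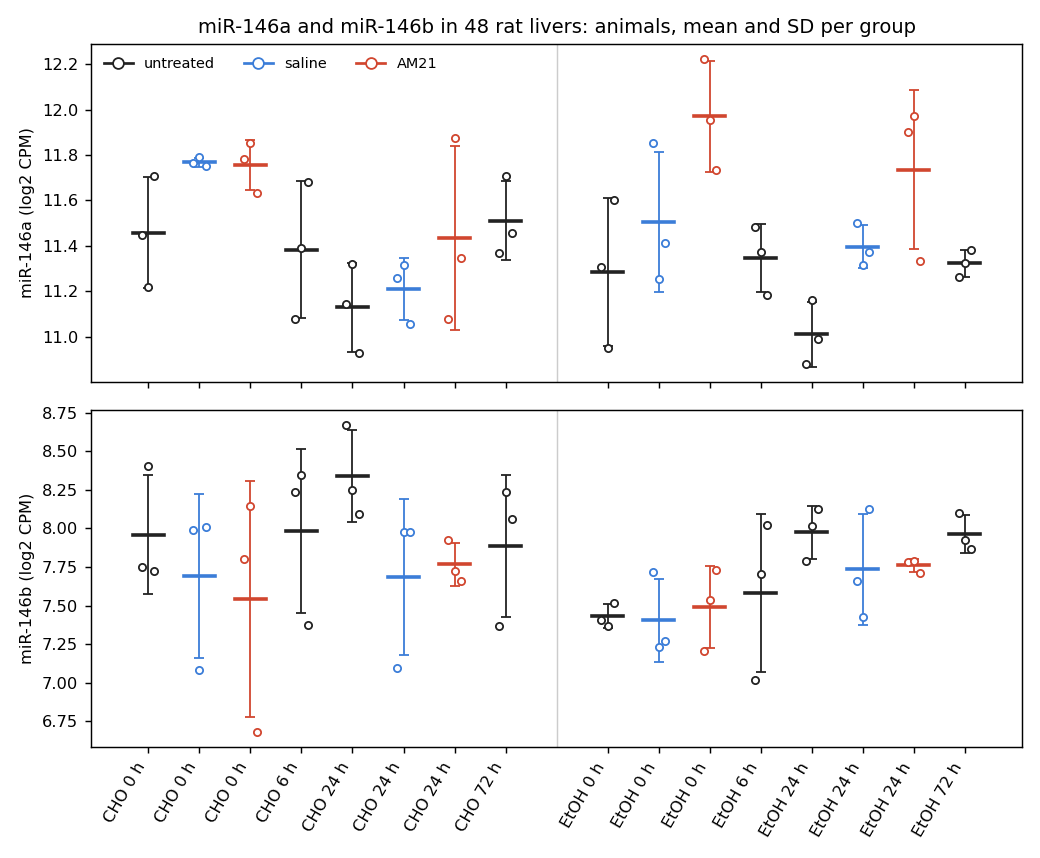
Levels of miR-146a (top) and miR-146b (bottom) in log2 CPM in each of the 48 rats (open circles), with the mean (thick bar) and SD of each group of 3, by diet, time after PHx and treatment (colour). The AM21 groups reach 12.22 log2 CPM for miR-146a in EtOH rats at 0 h, and the untreated 24 h groups are the lowest for miR-146a and, in CHO rats, the highest for miR-146b.

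The course after PHx in untreated rats asks whether the pair moves during regeneration. CHO rats had 11.45, 11.22 and 11.71 log2 CPM of miR-146a at baseline and 11.14, 11.32 and 10.93 by 24 h. EtOH rats had 11.31, 10.95 and 11.60 at baseline and 10.88, 11.16 and 10.99 by 24 h. The times overlapped in both diets, although each 24 h mean was the lowest of its course. The difference from 0 h was -0.33 log2 in CHO (SE 0.189, adjusted p = 0.274) and -0.28 in EtOH rats (SE 0.189, adjusted p = 0.442). Leaving out 1 rat moved these values between -0.45 and -0.20 in CHO, the latter without the rat of set 3 at 0 h, and between -0.44 (without the rat of set 2 at 0 h) and -0.12 (without the rat of set 3 at 0 h) in EtOH rats. In this comparison 1.4% of the 143 miRNAs passed an adjusted p of 0.05 in each diet. With the set number as a block, 19 in place of 2 miRNAs were called in CHO rats, and neither member was among them (adjusted p = 0.241 for miR-146a and 0.376 for miR-146b).

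miR-146b took the opposite sign at 24 h. The CHO rats measured 7.75, 8.40 and 7.73 log2 CPM at baseline and 8.67, 8.25 and 8.09 by 24 h. The EtOH rats measured 7.41, 7.37 and 7.52 at baseline, 7.79, 8.01 and 8.13 a day later (24 h) and 8.10, 7.93 and 7.86 by 72 h. All EtOH rats at 24 and 72 h lay above all EtOH rats at 0 h, whereas the CHO values overlapped. Such separation was common in EtOH rats, with 30.8% of the 143 miRNAs not overlapping between 0 and 24 h and 38.5% between 0 and 72 h. The differences were 0.38 log2 in CHO at 24 h (SE 0.274, adjusted p = 0.398), 0.54 in EtOH at 24 h (adjusted p = 0.265) and 0.53 in EtOH at 72 h (adjusted p = 0.181).

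The remaining steps of the course were smaller. At 6 h the difference from 0 h was -0.07 (CHO) and 0.06 log2 (EtOH) for miR-146a and 0.02 and 0.15 for miR-146b, with adjusted p from 0.671 to 0.957, while 2.1% of all miRNAs passed the test in CHO and 11.2% in EtOH rats. At 72 h miR-146a differed from 0 h by 0.05 in CHO and 0.04 in EtOH rats and miR-146b by -0.07 in CHO rats, against 18.2% of miRNAs called in each diet. Between 24 and 72 h miR-146a was 0.38 log2 higher at the later time in CHO rats (95% interval -0.01 to 0.772, adjusted p = 0.531) and 0.31 higher in EtOH rats (adjusted p = 0.382). A test over all 4 times called 32.9% of miRNAs in CHO and 39.9% in EtOH rats, and neither miR-146a (adjusted p = 0.312 and 0.356) nor miR-146b (0.467 and 0.203) was among them. The 6 and 72 h rats carry another set number in the labels than the 0 and 24 h rats, so that these times cannot be told apart from the set.

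Ethanol feeding alone was compared at each time in untreated rats. The EtOH minus CHO difference in miR-146a lay between -0.19 and -0.04 log2 at the 4 times, with adjusted p from 0.637 to 0.979. miR-146b at 0 h was 7.41, 7.37 and 7.52 log2 CPM in EtOH against 7.75, 8.40 and 7.73 in CHO rats, and the groups did not overlap, as was the case for 16.1% of all miRNAs. That difference was -0.53 log2 (SE 0.274, adjusted p = 0.325), and it was -0.40, -0.36 and 0.08 at the later times. The diet called 2.1% of miRNAs at 0 h and again at 24 h but 0% at the other 2 times, and its interaction with time called 0% (both members, adjusted p = 0.9999). With the set number as a block 8 in place of 3 miRNAs were called at 0 h, without miR-146b (adjusted p = 0.291). Over all 3 treatments the diet difference of miR-146b was -0.29 at 0 h (adjusted p = 0.247, 14.7% of miRNAs called) and -0.11 at 24 h (adjusted p = 0.798, 1.4% called), and that of miR-146a was -0.07 and 0.12. The miR-146b difference at 0 h passed without the CHO AM21 rat of set 3 (-0.43, adjusted p = 0.04837). Without the 2 saline rats of low miR-21 it was -0.33 (adjusted p = 0.284), and that of miR-146a was -0.10.

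Rats with every treatment at 0 and 24 h gave a larger comparison of the same step, 18 rats against 18. This average over treatments was added after the planned comparisons had been seen. miR-146a fell by 0.30 log2 from 11.62 to 11.32 log2 CPM (SE 0.0837, adjusted p = 0.00402), and 16 of the 18 rats at 24 h lay below the 0 h mean of their own diet and treatment. miR-146b rose by 0.29 log2 from 7.59 to 7.88 log2 CPM (SE 0.119, adjusted p = 0.0417), with 17 of 18 rats above their 0 h mean. The step was broad, since 51.7% of the 143 miRNAs passed the same test, and the median difference of all was 0.0527 log2. The call of miR-146b was lost when any of 20 of the 36 rats was left out (0.22 to 0.29 log2 in these omissions), whereas that of miR-146a was kept in each of the 36 omissions. Without the 2 saline rats of low miR-21 the differences were -0.29 log2 (adjusted p = 0.011) and 0.31 (adjusted p = 0.049).

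In the 24 untreated and saline rats alone the call of miR-146b was not made. miR-146a fell by 0.32 log2 (adjusted p = 0.016, 34.3% of miRNAs called) and miR-146b differed by 0.31 log2 (adjusted p = 0.0926). Without the saline rats of low miR-21 these values were -0.29 (adjusted p = 0.0496) and 0.35 (adjusted p = 0.108).

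Within the numbered sets the difference in miR-146a between 24 and 0 h was -0.44 in set 1, -0.01 in set 2 and -0.47 in set 3, and that in miR-146b was 0.18, 0.24 and 0.46. The sign of both was therefore the same in each set, although set 2 contributed little for miR-146a. Without the low miR-21 rats sets 1 and 2 gave -0.41 and -0.06 for miR-146a and 0.19 and 0.16 for miR-146b. In CHO controls, untreated and saline together, miR-146a fell by 0.44 log2 (adjusted p = 0.0245, 25.2% of miRNAs called). This call was lost without the CHO untreated rat of set 3 at 0 h (-0.38), that at 24 h (-0.39), the CHO saline rat of set 2 at 0 h (-0.44) or the CHO saline rat of set 3 at 24 h (-0.40). In EtOH controls the difference was -0.19 (adjusted p = 0.414, 11.2% called). In AM21 rats it was -0.32 in CHO (9.09% called) and -0.23 in EtOH (0% called), neither past the test. miR-146b differed by 0.19 in CHO and 0.44 in EtOH controls and by 0.23 and 0.27 in the AM21 rats of each diet, none past the test. In EtOH controls without the low miR-21 rats the differences were -0.15 for miR-146a (adjusted p = 0.637) and 0.51 for miR-146b (adjusted p = 0.317), with 3.5% of miRNAs called.

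**Figure D2:**
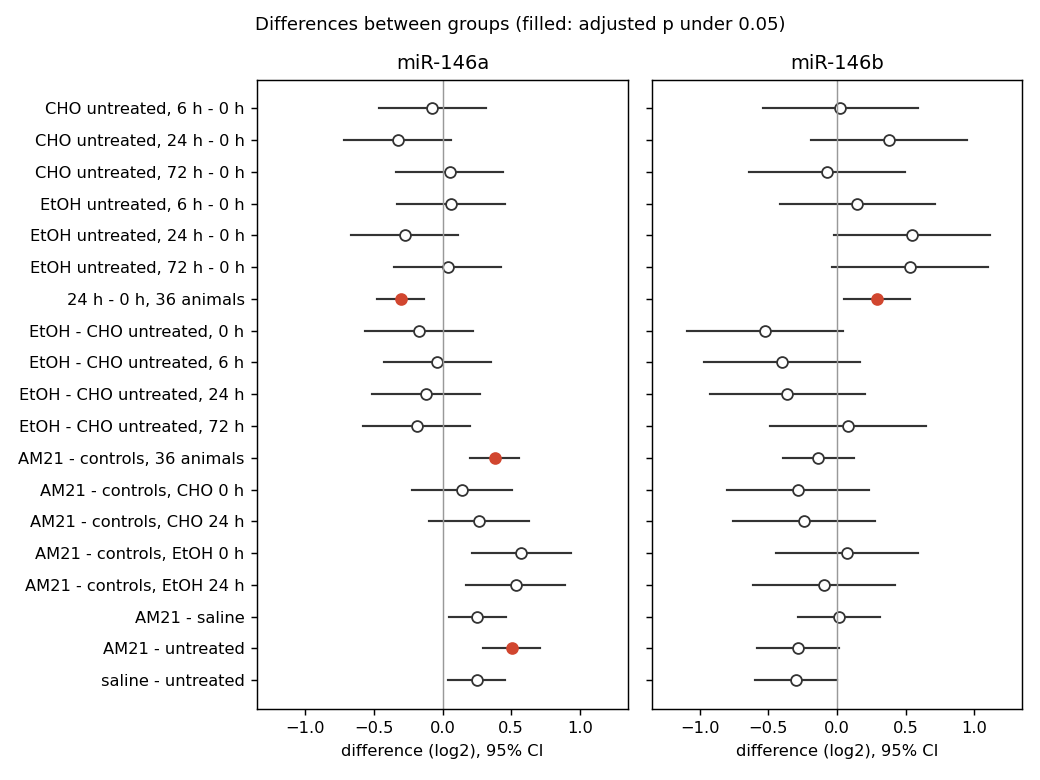
Differences in log2 CPM for miR-146a (left) and miR-146b (right) with 95% confidence intervals from the limma fits, for time after PHx, diet, AM21 and saline. Filled points had an adjusted p under 0.05: for miR-146a the 24 h step over 36 rats (-0.30) and AM21 against all controls (0.38) or untreated rats (0.50), and for miR-146b the 24 h step over 36 rats (0.29) alone.

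Inhibition of miR-21 was compared with untreated and saline rats at 0 and 24 h in both diets, 12 against 24 rats. By the dosing schedule the second dose came after the 0 h baseline. AM21 rats at 0 and 24 h therefore differed in dose together with time. miR-146a ranged from 11.08 to 12.22 log2 CPM (median 11.82) with AM21 and from 10.88 to 11.85 (median 11.31) in controls. The groups overlapped, but 11 of 12 AM21 rats lay above the control mean of their own diet and time. miR-146a rose by 0.38 log2, or 1.30-fold (SE 0.0888, adjusted p = 0.00531), from 11.35 ± 0.287 (SD, n = 24) to 11.72 ± 0.324 (n = 12). It was 1 of 8 miRNAs called (5.59% of those measured) and 1 of 2 that were higher. miR-146b ranged from 6.68 to 8.15 log2 CPM with AM21 (median 7.73) and from 7.08 to 8.67 in controls (median 7.77), and differed by -0.14 log2 (SE 0.127, adjusted p = 0.531), with 3 of 12 AM21 rats above their control mean.

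The size of the miR-146a difference varied among the 4 combinations of diet and time. In CHO rats at 0 h the AM21 values of 11.78, 11.85 and 11.63 overlapped the controls, with a difference of 0.14 log2 (adjusted p = 0.731, 2.1% of miRNAs called). In CHO rats at 24 h they were 11.08, 11.88 and 11.35 (difference 0.26, adjusted p = 0.6, 1.4% called), and the difference became 0.04 without the AM21 rat of set 2 and 0.44 without that of set 1. In EtOH rats the AM21 values were 12.22, 11.95 and 11.73 at baseline and 11.90, 11.97 and 11.33 by 24 h. At both times they overlapped the controls, whose highest values were 11.85 at 0 h and 11.50 at 24 h. The EtOH differences were 0.57 (SE 0.178, adjusted p = 0.0843, 2.8% called) and 0.53 log2 (adjusted p = 0.192, 1.4% called). The test of AM21 by diet gave 0.35 log2 (95% interval -0.01 to 0.713, unadjusted p = 0.058, adjusted p = 0.698) and that of AM21 by time 0.04 (adjusted p = 0.998), and each of these interactions called 0% of miRNAs. Without the low miR-21 rats the EtOH difference at 0 h was 0.62 (adjusted p = 0.171), the test by diet gave 0.37 (unadjusted p = 0.0507, adjusted p = 0.75) and the test by time 0.02 (adjusted p = 0.998).

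Averaged over diets, the difference was 0.36 at 0 h (adjusted p = 0.138, 4.2% called) and 0.40 at 24 h (adjusted p = 0.0818, 2.8% called), so that against all controls it passed the test over both times together but at neither alone. At 0 h it was 0.38 (adjusted p = 0.146) without the low miR-21 rats. It passed at 24 h without the CHO AM21 rat of set 1 (0.49, adjusted p = 0.03685) or the EtOH AM21 rat of set 3 (0.50, adjusted p = 0.0207), and in EtOH rats at 24 h without the latter (0.73, adjusted p = 0.0324). In EtOH rats at 0 h it passed without the saline rat of set 1 (0.66, adjusted p = 0.0268) or the untreated rat of set 3 (0.65, adjusted p = 0.0316). Within sets 1, 2 and 3 the miR-146a difference between AM21 and control rats was 0.35, 0.62 and 0.16 log2. For miR-146b it was -0.08, 0.08 and -0.41, without a common sign. Without the low miR-21 rats sets 1 and 2 gave 0.42 and 0.62 for miR-146a and -0.09 and 0.01 for miR-146b.

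The choice of control changed the size of the result. On average over diets and times, saline rats lay between untreated and AM21 rats for miR-146a. The means were 11.22 log2 CPM in untreated, 11.47 in saline and 11.72 in AM21 rats (n = 12 each). In CHO rats at 0 h the saline mean (11.77) was not below the AM21 mean (11.76). Against untreated rats alone the difference was 0.50 log2 (SE 0.103, adjusted p = 0.00142, 4.2% called), and it passed at each time alone, with 0.49 at 0 h (adjusted p = 0.0472, 4.2% called) and 0.51 at 24 h (adjusted p = 0.0366, 3.5% called). Against saline rats alone it was 0.25 (SE 0.103, unadjusted p = 0.019, adjusted p = 0.247, 4.9% called). It passed at neither time against saline, with 0.23 at 0 h (adjusted p = 0.796, 2.8% called) and 0.28 at 24 h (adjusted p = 0.64, 2.1% called). Saline against untreated differed by another 0.25 log2 (unadjusted p = 0.0214, adjusted p = 0.469, 1.4% called). All saline values lay above the untreated values in CHO rats at 0 h (0.31, adjusted p = 0.959) and EtOH rats at 24 h (0.39, adjusted p = 0.842). Of all miRNAs 8.39% and 15.4% did not overlap there. The values overlapped in CHO rats at 24 h (0.08) and EtOH rats at 0 h (0.22). Between AM21 and saline rats the difference within sets 1, 2 and 3 was 0.15, 0.50 and 0.11. In sets 1 and 2 it was 0.24 and 0.44 without the low miR-21 rats.

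For miR-146b the saline rats were lower than untreated rats by 0.30 log2 (unadjusted p = 0.051, adjusted p = 0.675), and AM21 differed from saline by 0.01 (95% interval -0.287 to 0.309). At 24 h in CHO rats the saline values of 7.10, 7.98 and 7.98 log2 CPM lay below the untreated values of 8.67, 8.25 and 8.09 without overlap, as for 6.99% of all miRNAs. That difference was -0.65 log2 (unadjusted p = 0.0331, adjusted p = 0.999), and limma called 0% of miRNAs there (6 at an unadjusted p under 0.05). Without the 2 saline rats of low miR-21 AM21 against all controls was 0.39 for miR-146a (adjusted p = 0.00707, 1 of 5 miRNAs called) and -0.12 for miR-146b (adjusted p = 0.625). In the same fit AM21 against saline was 0.28 for miR-146a (adjusted p = 0.367) and 0.05 for miR-146b, and saline against untreated was 0.23 for miR-146a and -0.33 for miR-146b (adjusted p = 0.996 for each).

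**Figure D3:**
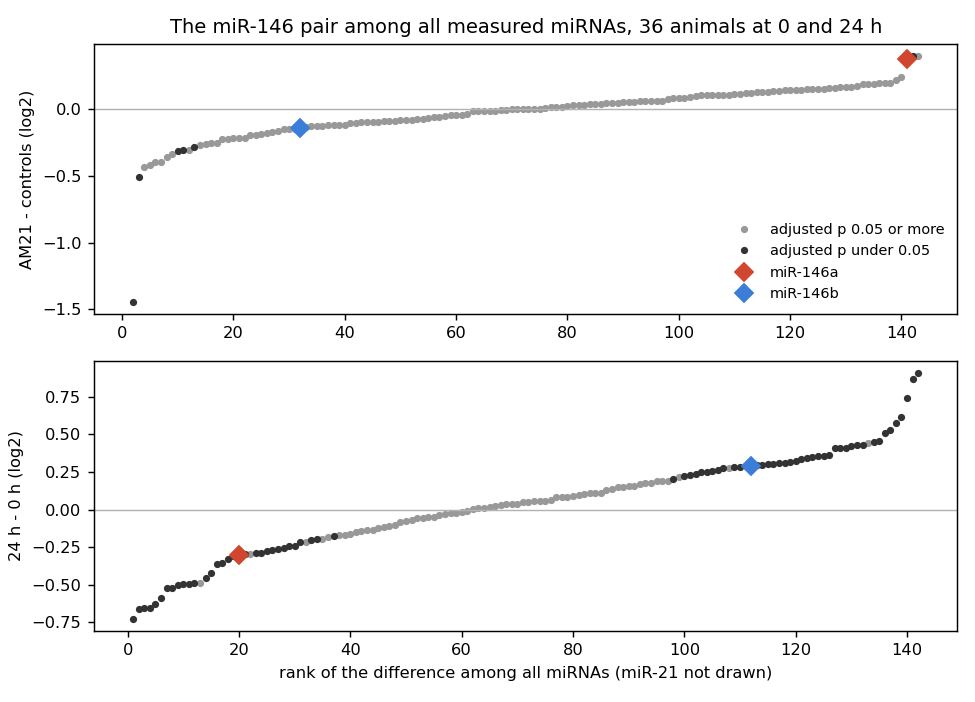
Differences in log2 CPM of the 143 miRNAs in rank order for AM21 against controls (top) and for 24 h against 0 h (bottom), with dark points past an adjusted p of 0.05 and the miR-146 pair as diamonds; miR-21 (-7.16 with AM21) is not drawn. With AM21 miR-146a (0.38) stands near the upper end, while at 24 h miR-146a (-0.30) and miR-146b (0.29) lie among the 51.7% of miRNAs that passed the test.

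The difference between the 2 miRNAs within each rat was tested by permutation, since it does not depend on how rats were scaled to each other. Their probes have unknown efficiencies, and only changes in the difference were read. Total count was not adjusted for in these tests. Over the 48 rats r with log10 total count was 0.14 for miR-146a and -0.27 for miR-146b. After subtraction of the group means these values were 0.26 and -0.36. In untreated rats miR-146a exceeded miR-146b by 2.82 to 4.08 log2 at 0 h and by 2.47 to 3.15 at 24 h. All 6 rats at 24 h lay below 5 of the 6 rats at 0 h, and the overlap came from the CHO rat of 2.82 at 0 h. The change was -0.76 log2 (exact two-sided permutation test within diet, n = 6 and 6, p = 0.015, adjusted over 5 tests p = 0.025, smallest possible 0.005). At 6 h it was -0.09 (p = 0.77, exact permutation test) and at 72 h -0.19 (p = 0.44, exact permutation test).

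Over all 36 rats at 0 and 24 h the 2 miRNAs drew together by 0.60 log2 at 24 h, from a difference of 4.04 to 3.44 (permutation test within diet and treatment, p = 0.00015, adjusted p = 0.00075). With AM21 they moved apart by 0.52 log2, from 3.57 in controls to 4.08 (permutation test within diet and time, p = 0.00372, adjusted p = 0.0093). These 3 changes kept an unadjusted p of 0.03 or less whichever rat was left out. Without both low miR-21 rats the change at 24 h over all treatments was -0.60 (permutation p = 0.00034) and that with AM21 0.53 (permutation p = 0.00442). The permutation of all 36 rats by time was added after the planned tests. The permutation test with AM21 pooled saline and untreated controls. In the limma fits AM21 against saline was 0.25 log2 for miR-146a and 0.01 for miR-146b. Saline against untreated was 0.25 for miR-146a and -0.30 for miR-146b. The within-rat difference was not tested against saline alone.

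**Figure D4:**
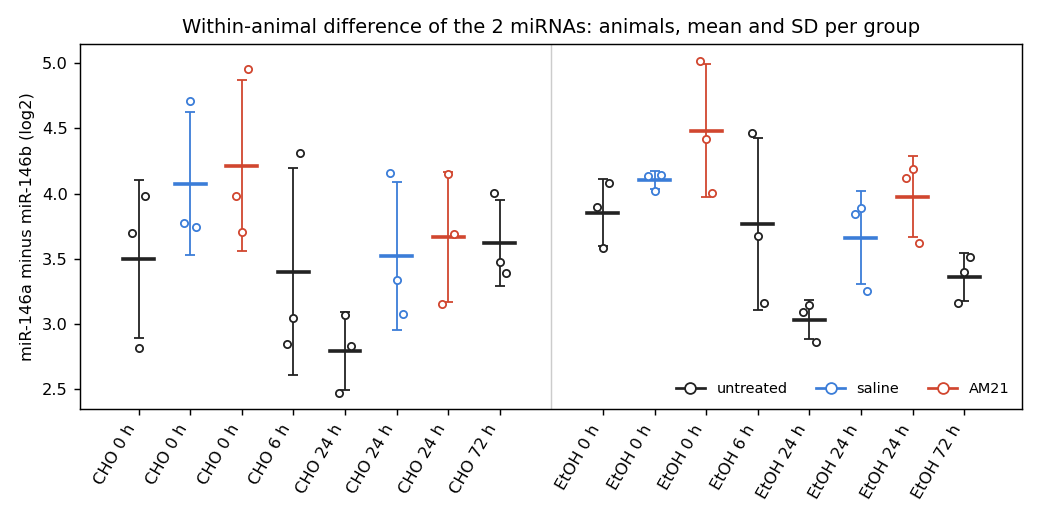
Difference of miR-146a minus miR-146b (log2) in each rat (open circles), with the mean and SD of each group of 3, by diet, time and treatment (colour). Untreated rats at 24 h are lowest, at 2.47 to 3.15, and AM21 rats at 0 h reach 5.02.

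Across the 48 rats the 2 miRNAs showed no common variation that passed a test. Pearson's r was -0.27 (permutation p = 0.0619, adjusted p = 0.301) and Spearman's rho -0.28 (permutation p = 0.0532, adjusted p = 0.372). After subtraction of the group means r was -0.07, and within sets 1 to 4 it was -0.29, -0.09, -0.46 and -0.32 (12 rats each). Without the 2 rats farthest from the median of miR-146b r was -0.23, and without the 2 low miR-21 rats it was -0.30 (unadjusted permutation p = 0.0445). In all 7 relations were computed.

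Because AM21 acts on miR-21, each member was also set against miR-21 across rats, a relation added after the plan. AM21 rats formed a separate cluster in miR-21, so no value over all rats is read as a relation. In the 36 rats without AM21 r of miR-146a with miR-21 was -0.28 (permutation p = 0.0952, adjusted over 18 relations p = 0.493) and rho -0.34 (p = 0.0449, adjusted p = 0.162). Leaving out the 2 rats with the most extreme miR-21, which are the 2 saline rats named above, gave r of -0.33. In the 12 AM21 rats r was -0.13 (permutation p = 0.69).

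The relation was not the same in each set. In rats without AM21 r was -0.88 in set 1 (n = 8, exact permutation p = 0.00062, adjusted p = 0.0112), 0.01 in set 2 (n = 8), -0.58 in set 3 (n = 8) and 0.33 in set 4 (n = 12). Without the low miR-21 rats r was -0.88 in set 1 and -0.14 in set 2. Once the group means were subtracted it was 0.26 (permutation p = 0.128, adjusted p = 0.493), with rho of 0.36 (permutation p = 0.0323, adjusted p = 0.162), so the negative sign was seen between groups and not among rats of a group. For miR-146b r with miR-21 was 0.22 in rats without AM21 (permutation p = 0.213) and 0.16 in AM21 rats (permutation p = 0.64). In rats without AM21 it was 0.06 less the low miR-21 rats. After subtraction of the group means the sign turned, with r of -0.23 (permutation p = 0.185) and rho of -0.40 (permutation p = 0.0145, adjusted p = 0.131).

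**Figure D5:**
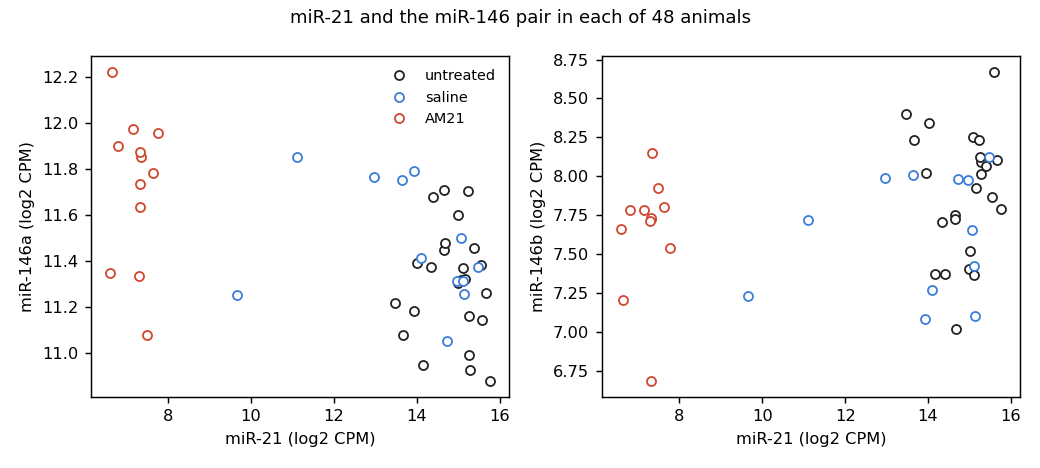
Levels of miR-146a (left) and miR-146b (right) against miR-21, all in log2 CPM, in each of the 48 rats, coloured by treatment. The 12 AM21 rats form a separate cluster at 6.59 to 7.76 log2 CPM of miR-21, where miR-146a spans 11.08 to 12.22.

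Other miRNAs of the Toll-like receptor and NF-κB response were read from a list of 12, of which 6 were measured. With AM21 0 of the 6 was higher and 1 was lower, miR-21 itself, with a median difference of -0.10 log2 against 0.00310 for all miRNAs, of which 5.59% were called. At 24 h against 0 h over 36 rats 4 of 6 were higher and 0 lower, with a median of 0.383 against 0.0527, beside 51.7% of all miRNAs called (42 higher and 32 lower). They were miR-21 (1.06 log2, adjusted p = 0.000586), miR-132 (0.57, adjusted p = 0.000607), miR-223 of myeloid cells (0.41, adjusted p = 0.0011) and miR-221, which is linked to cell proliferation (0.35, adjusted p = 0.00716). The calls stood without the 2 low miR-21 rats, where miR-21 itself was 0.64 log2 higher (adjusted p = 0.000791). The remaining measured members, let-7e (-0.08) and miR-125b-5p (0.06), did not pass. miR-146b had the sign of these 4 called members at 24 h, as did all 42 miRNAs called higher. miR-146a had the opposite sign, that of the 32 called lower. In untreated rats 1 of 6 was higher at 72 h in each diet, beside 18.2% of all miRNAs called in each. At 6 h 0 of 6 passed, beside 2.1% of all in CHO and 11.2% in EtOH rats. At 24 h 0 of 6 passed, beside 1.4% of all in each diet. With saline against untreated, where 1.4% of all miRNAs were called, 1 of the 6 was lower. It was again miR-21 (-1.10 log2, adjusted p = 0.0407). Without the 2 low miR-21 rats miR-21 differed by -0.48 (adjusted p = 0.683), and 0% of all miRNAs were called.

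Markers of blood and non-parenchymal cells were read beside the 2 called results of miR-146a. With AM21, where 5.59% of all miRNAs were called (2 higher and 6 lower), 0 of the 4 measured of 6 leukocyte miRNAs passed the test, and their summed level ranged from 11.31 to 12.23 log2 CPM with AM21 and from 11.28 to 12.03 in controls. Of 4 measured stellate and mesenchymal miRNAs 2 were lower with AM21, miR-199a-5p (-0.51 log2, adjusted p = 1.263e-05) and miR-199a-3p (-0.31, adjusted p = 0.0186), with sums of 13.68 to 14.28 against 13.75 to 14.61. Without the low miR-21 rats the call of miR-199a-3p was lost (-0.30, adjusted p = 0.0524). Both measured red blood cell miRNAs were lower without passing the test (-0.43 and -0.42 log2), with sums of 9.56 to 12.54 against 8.67 to 12.36. The single measured endothelial miRNA, miR-126, differed by 0.196 log2 and did not pass, nor did any of 4 hepatocyte miRNAs, whose sums were 18.91 to 19.74 with AM21 and 18.35 to 19.50 in controls. No measured marker was at 0. The part of these cells in the miR-146a difference was not tested.

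At 24 h against 0 h over 36 rats, where 51.7% of all miRNAs were called, the leukocyte markers were split, with miR-223 higher (0.41 log2) and miR-150, a lymphocyte miRNA, lower (-0.50, adjusted p = 3.392e-05), and sums of 11.29 to 11.95 at 24 h against 11.28 to 12.23 at 0 h. The stellate and mesenchymal miRNAs were split as well, with miR-199a-5p (0.26) and miR-143 (0.22) higher and miR-145 (-0.27) and miR-199a-3p (-0.24) lower, and sums of 13.68 to 14.31 against 13.80 to 14.61. The red blood cell miRNA miR-451 was lower (-0.63, adjusted p = 0.00655), with sums of the pair of 8.67 to 12.09 at 24 h and 9.99 to 12.54 at 0 h. Of the hepatocyte miRNAs miR-122 was higher (0.30) and miR-148b-3p lower (-0.18), and miR-126 differed by -0.22 without passing the test. The part of these cells in the steps of miR-146a and miR-146b was likewise not tested.

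The miRNAs whose levels most resembled those of miR-146a over the 48 rats were miR-99a (Pearson's r 0.626), miR-27b (0.514), miR-10a-5p (0.461), miR-23a (0.439) and endothelial miR-126 (0.437). Within groups, after subtraction of the group means, r was 0.544 for miR-99a, 0.422 for miR-126 and 0.389 for miR-10a-5p, but 0.224 for miR-27b and 0.0262 for miR-23a. The least alike were miR-132 (-0.555), miR-21 (-0.547, with the AM21 cluster included) and miR-345-5p (-0.473). In rats without AM21 r with miR-21 was -0.28.

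miR-146b was most like miR-674-5p (0.495), miR-3561-3p (0.468), miR-32 (0.455), miR-34a (0.452) and miR-17-5p (0.444), of which 4 had a median of 43 to 52 counts and so share its low range. It was least like miR-365 (-0.45), miR-194 (-0.386) and miR-30c (-0.377). The members were far from each other's nearest, with miR-146b in position 110 of 142 for miR-146a and miR-146a in position 126 for miR-146b. These values describe rats that share groups, sets and scaling, and carry no test.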

How the data were processed

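Total RNA from 48 liver samples was assayed by NanoString nCounter. The authors scaled raw counts by TMM (edgeR) and voom-transformed them, and deposited log2 CPM for 143 miRNAs, which exclude the other assayed miRNAs by a filter not given in the sources used here. limma is the tool the submitters name. Counts were recovered by undoing the transformation (0.5 added per count) and were whole within 0.001 in every rat. They were used for depth and counting error, for the alternative scalings, voom weights and count minimum, and for the simulated data. The main fits used the deposited values.

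The deposited log2 CPM were fitted with limma (3.58.1, R 4.3.3; lmFit and eBayes, one mean per group, all 143 miRNAs), over the 24 untreated rats in 8 groups for time and diet and over the 36 rats at 0 and 24 h in 12 groups for AM21, saline and pooled comparisons. Tests were two-sided, with Benjamini-Hochberg adjustment over all miRNAs within a comparison and a threshold of 0.05. Permutation tests were exact or used 100000 resamples. The fit was checked on simulated data.

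The 2 miRNAs, the marker lists and the comparisons were chosen with earlier results of these data known. Named besides the pair were miR-21, list members with an adjusted p under 0.05 (at most 4 per list and comparison) and the 5 most and 3 least alike miRNAs. The labels number the rats by set, 1 to 3 at 0 and 24 h and 4 at 6 and 72 h, and leave the meaning of a set unstated. Deviations of same-numbered rats from their group means correlated above 0.1 in all 3 sets for 10 of 66 pairs of groups, among them CHO at 0 and 24 h untreated and both diets at 0 h untreated. Where nothing more is said of the origin of the rats of a group, p-values measure the spread between these samples.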

Additional observations from a re-analysis of the deposited data

How the results depend on the processing

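Over 58 results and 1176 alternative settings, 1102 kept their direction and side of the threshold, 31 changed sign, 27 lost and 16 gained a call. Most of these results had not passed in the main setting, so a kept side often means that an uncalled result stayed uncalled. No call of the miR-146a rise with AM21 was lost except against saline alone (0.25), where miR-146b turned to 0.0112; leaving out 1 rat gave 0.32 to 0.43. At 24 h the miR-146a rise with AM21 passed with RLE size factors (0.44), scaling to the 100 highest miRNAs (0.50), scaling without miR-122 (0.48) and all 48 rats in 1 fit (0.40), and in EtOH rats at 0 h with the 100 highest (0.65) or all 48 rats (0.57). Leaving out 1 rat gave 0.29 to 0.50 at 24 h, 0.45 to 0.69 in EtOH at 0 h and 0.41 to 0.73 in EtOH at 24 h. The miR-146a step in CHO controls lost its call among only the groups compared (-0.44) and ran from -0.50 to -0.38 without 1 rat. The miR-146b step over 36 rats lost its call with the 100 highest (0.26) and ran from 0.22 to 0.34. The miR-146b diet difference at 0 h over all treatments gained a call without 1 rat, with omissions from -0.43 to -0.19. The correlation of miR-146a with miR-21 passed unadjusted with the 100 highest (-0.37, p = 0.026) and without miR-122 (-0.41, p = 0.0148). The cause of these changes was not tested.

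Scaling to the 100 highest miRNAs moved the mean difference of all miRNAs by 0.12 for AM21 in CHO rats at 24 h and by 0.13 for EtOH rats at 6 h against 0 h, and scaling without miR-122 by 0.10 and 0.11.

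Small differences changed sign. miR-146a at 72 h in CHO rats became -0.0308 (100 highest), -0.0199 (without miR-122) and -0.17 (total count as covariate), and in EtOH rats -0.0393 (RLE) and -0.10 (covariate). The covariate turned miR-146b at 72 h to 0.36 in CHO and raised it to 0.80 in EtOH rats (adjusted p = 0.0381, and 0.0434 over time). In untreated CHO rats total counts were 171919 to 209221 at 72 h and 58168 to 126821 at 0 h. Depth there differed together with time and set number. Without 1 rat, miR-146a ran from -0.22 to 0.0777 (CHO, 6 h), -0.0665 to 0.18 (CHO, 72 h), -0.11 to 0.22 (EtOH, 6 h), -0.13 to 0.19 (EtOH, 72 h) and -0.19 to 0.11 (diet, 6 h). miR-146b ran from -0.16 to 0.33 (CHO, 6 h), -0.24 to 0.19 (CHO, 72 h), -0.0714 to 0.43 (EtOH, 6 h) and -0.18 to 0.25 (diet, 72 h). With AM21 it ran from -0.26 to 0.11 (0 h), -0.59 to 0.15 (CHO, 0 h), -0.0486 to 0.22 (EtOH, 0 h) and -0.17 to 0.00226 (EtOH, 24 h). The within-rat difference at 6 h ran from -0.32 to 0.0574.

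With set number as a replicate block no call of either member changed (miR-146a with AM21 0.38, adjusted p = 0.00613), but calls over all miRNAs rose from 2 to 19 in CHO untreated rats at 24 h against 0 h and from 3 to 8 for the diet at 0 h. Fits of only the groups compared called fewer miRNAs in many comparisons. Examples were 5 against 26 in CHO rats at 72 h, 1 against 16 in EtOH rats at 6 h and 12 against 36 in CHO controls at 24 h. They called more in the EtOH test over time (61 against 57) and for AM21 at 24 h in both diets (5 against 4). A minimum of 50 counts in 3 rats dropped miR-146b from the 36-rat fit, so it has no value there. Counting error (0.255 log2 per rat) limits what miR-146b can show.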
